A study of Drosophila melanogaster with 4 samples.

Results

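Cuticle and chitin-associated genes were followed in adult Drosophila melanogaster females after contact with a black pepper extract. They were the genes with a spot listed under exactly 1 symbol that begins with Twdl, Lcp, Ccp, Cpr, Vajk or ChLD, which gave 9 of 2377 named genes, measured by 18 of 16896 spots. The genes TwdlT, TwdlW, Lcp65Ag3, Vajk3 and ChLD3 were chosen by name with their extract-over-ethanol ratios on these same arrays in view, and the symbol prefixes added Vajk4, Cpr47Ee, Cpr49Ac and Cpr72Ec. The ratios below are therefore a description of these 9 genes, with no test of them.

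The treated flies received 2 mL of Piper nigrum extract at 0.9 mg/mL in 99% ethanol, and the control flies 2 mL of 99% ethanol alone, both sprayed topically from a Potter's tower (a device that settles an even spray on insects). Per the labels, all were Oregon-R females aged 10 to 20 days after emergence, sampled 4 h later, so that both sides carried the ethanol spray. Flies were pooled at about 240 whole insects. The labels pair extract-treated flies with ethanol control flies of the same number, 1 or 3, and each of these 2 pairs is called a pool below. A pair was hybridised on 2 arrays, once with extract in Cy3 and once with extract in Cy5, the reverse label. The arrays of a pair share their RNA and count as 1 replicate (n = 2). Each side of a pair is 1 pooled group of insects. A ratio does not separate variation between treated groups from that between control groups.

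The cuticle is the extracellular coat that epidermal cells secrete at their apical face, with an outer waxy and proteinaceous envelope over layers of chitin fibres bound by protein. Chitin is a polymer of N-acetylglucosamine. The Cpr and Lcp proteins carry the Rebers and Riddiford sequence, a chitin-binding region of arthropod cuticle proteins, and the Tweedle (Twdl) proteins form a separate insect family that helps set body shape. Chitin deacetylases remove acetyl groups from chitin, which changes how fibres pack and bind protein. A spray insecticide meets this coat first, and most of it is laid down before adult emergence.

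Each value is a log2 ratio, extract over ethanol, as the authors deposited it and centred on its array's median. The direction was assumed and is not settled, since the sources used here do not name the numerator: ratios of ethanol over extract would turn every sign. The log base was likewise taken as 2, and another base would scale every size by the same factor. If the ratios had been formed by dye, the effect of the extract would instead be read after turning the sign of both reverse-label arrays, up to a sign set by the dye on top, and those values are given beside the others. Errors are standard errors of limma with n = 2 pools, from 1 fit over 13607 features whose median was 0.153. Most of each error is borrowed from all features, with 8.19 prior against 1 residual degrees of freedom. They hence say little of a gene's own spread: TwdlW, with a gap of 0.05 between pools, has 0.149, and ChLD3, with a gap of 0.50, has 0.170. A ratio gives no level, so whether a gene was expressed in these females cannot be read from it, and in whole-fly RNA fewer epidermal cells and less RNA per cell cannot be told apart.

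Vajk3 stood farthest from 0 among the 9 genes. Its log2 ratios in replicate 1 were 1.42 with extract in Cy3 and 0.48 with extract in Cy5, and in replicate 3 they were 1.08 and 0.57. All 4 arrays lay above 0, as did all 8 single-spot values, and the pool means of 0.95 and 0.83 differed by 0.13. The mean was 0.89 ± 0.15, a 1.85-fold ratio, and ranked 8 from the top of the 2377 named genes. By array its rank was 6 and 4 on the Cy3 arrays, against 147 and 74 on the Cy5 arrays of replicates 1 and 3. With the reverse-label arrays turned it stood at 0.47 in replicate 1 and 0.25 in replicate 3, still above 0, with a mean of 0.36. Vajk3 was the 1 of the 9 genes (11.1%) above 0 on all 4 arrays, where 8.83% of named genes were. It was also the 1 gene at 1.5-fold or more above 0 in both pools, where 0.337% of named genes were. Vajk3 was chosen with these ratios in view, so both shares are description.

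Its 2 spots on the arrays, which stand next to each other, matched closely with extract in Cy3 and less so with extract in Cy5. The Cy3 spot values were 1.46 and 1.39 in replicate 1 and 1.10 and 1.05 in replicate 3. The Cy5 spot values were 0.03 and 0.93 in replicate 1 and 0.30 and 0.85 in replicate 3. The first spot gave the lower value on both Cy5 arrays and the higher value on both Cy3 arrays. Vajk4, listed under the same family name, did not share the size of this ratio. It read 0.11 and 0.17 in replicate 1 and 0.55 and -0.03 in replicate 3, in the order Cy3 then Cy5. Its pool means of 0.14 and 0.26 averaged 0.20 ± 0.15, about the size of its standard error, and the Cy3 array of replicate 3 held the highest of the 4 values. Without that array Vajk4 stood at 0.05, and with the reverse-label arrays turned it read -0.03 in replicate 1 and 0.29 in replicate 3, with a mean of 0.13. Vajk1 and Vajk2, which lie within 5 protein-coding genes of Vajk3 in RefSeq's gene order, had no spot under their own name here.

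**Figure D1:**
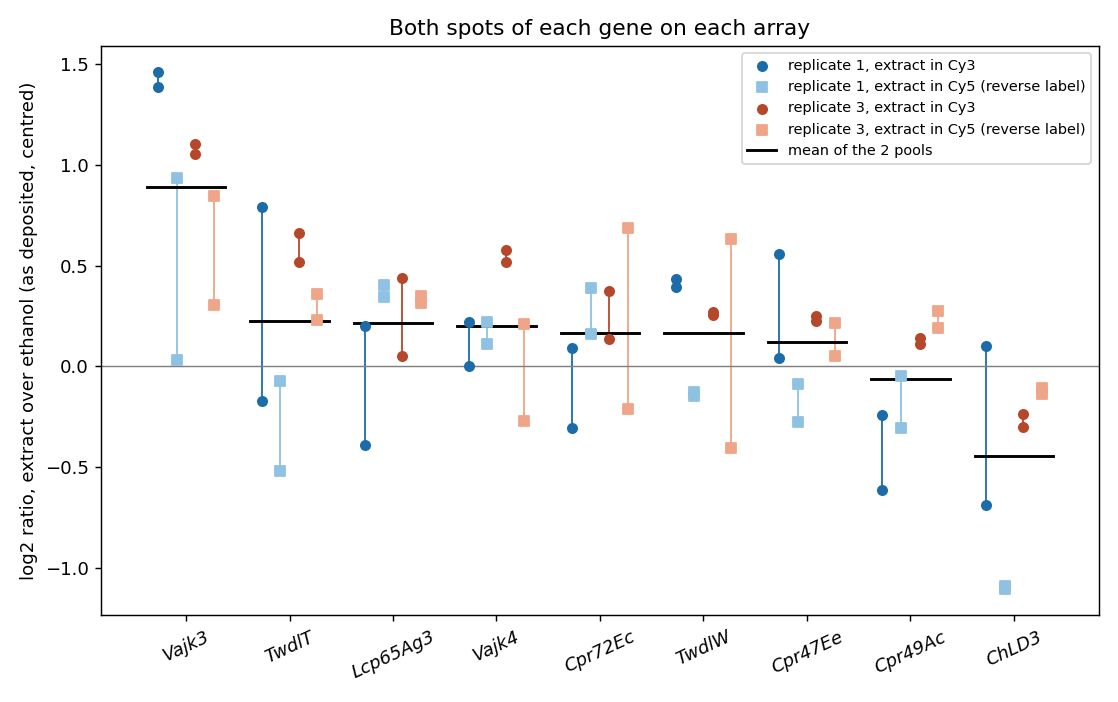
Log2 ratio of extract over ethanol, as deposited and centred, for both spots of each of the 9 genes on each of the 4 arrays; circles are arrays with extract in Cy3, squares arrays with extract in Cy5, a thin line joins the spots of 1 array and the black bar is the mean of the 2 pools. All 8 values of Vajk3 lie above 0 and 7 of 8 values of ChLD3 below it, while the spots of TwdlW differ by 1.03 on the Cy5 array of replicate 3.

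ChLD3 lay at the other end. It is listed among chitin deacetylases by RefSeq's older name DmCDA3. Its log2 ratios were -0.29 and -1.10 in replicate 1 and -0.27 and -0.12 in replicate 3, in the order Cy3 then Cy5. All 4 arrays lay below 0, as 7.99% of named genes did, but the Cy5 array of replicate 1 alone passed -1, and both of its spots did so, at -1.09 and -1.11. The pool means were -0.69 and -0.19, a gap of 0.50 that was larger than the mean of -0.44 ± 0.17 itself. The mean ranked 18 from the bottom of the named genes, and without the Cy5 array of replicate 1 it was -0.24. On the Cy3 array of replicate 1 the 2 spots read -0.69 and 0.10. With the reverse-label arrays turned ChLD3 stood at 0.40 in replicate 1 and -0.07 in replicate 3, so that its mean of 0.16 had the opposite sign.

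The Tweedle genes TwdlT and TwdlW lay above 0 on 3 of 4 arrays each, and in both the Cy5 array of replicate 1 was the exception. TwdlT read 0.31 and -0.29 in replicate 1 and 0.59 and 0.29 in replicate 3. Its mean of 0.22 ± 0.17 came from replicate 3, at 0.44, with replicate 1 at 0.01. TwdlW read 0.41 and -0.14 in replicate 1 and 0.26 and 0.11 in replicate 3. Its pools lay close together, at 0.14 and 0.19, with a mean of 0.16 ± 0.15, but the single spots did not: on the Cy5 array of replicate 3 they read 0.63 and -0.40, the widest gap between duplicate spots among the 9 genes. In both genes the Cy3 array gave the higher ratio within each pool, by 0.60 and 0.29 for TwdlT and by 0.55 and 0.15 for TwdlW in replicates 1 and 3. With the reverse-label arrays turned they kept their sign, at 0.22 and 0.17, and for TwdlW this was no smaller than the mean as deposited. TwdlW and Cpr47Ee had the most similar set of 4 array ratios of any pair of the 9 genes, with a root mean square difference of 0.06.

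Lcp65Ag3, a larval cuticle protein of the Lcp65A gene cluster, read -0.09 and 0.37 in replicate 1 and 0.25 and 0.33 in replicate 3. Here the Cy3 array of replicate 1 was the 1 array below 0. The pool means were 0.14 and 0.29 and the mean 0.21 ± 0.15. The Cy5 arrays gave the higher ratio in both pools, so that with the reverse-label arrays turned it lay at -0.23 and -0.04, with a mean of -0.14. Within 5 protein-coding genes of it RefSeq lists Lcp65Ag2, Lcp65Ag1, Lcp65Af, Lcp65Ae and Cpr65Au, none with a spot under its own name here. Lcp65Ag1 and Lcp65Ag2 are near-identical in sequence to each other and closely related to Lcp65Ag3, and a spotted probe can bind related transcripts, so the value cannot be assigned to 1 copy.

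The Cpr genes, named for the Rebers and Riddiford sequence and for their place on the chromosome, stood on both sides of 0. Cpr72Ec read -0.11 and 0.28 in replicate 1 and 0.25 and 0.24 in replicate 3, with a mean of 0.17 ± 0.15 that was 0.07 without the Cy5 array of replicate 1. Cpr47Ee read 0.30 and -0.18 in replicate 1 and 0.24 and 0.13 in replicate 3, with a mean of 0.12 ± 0.15. Each had 1 array below 0, Cpr72Ec that with extract in Cy3 and Cpr47Ee that with extract in Cy5, both of replicate 1. Cpr49Ac was split by pool: it read -0.43 and -0.18 in replicate 1 and 0.13 and 0.23 in replicate 3, with a mean of -0.06 ± 0.17. No array of 1 pool overlapped an array of the other for Cpr49Ac, but with so few arrays per pool such a separation can arise by ordering alone. The share of named genes separated in this way was not counted, so the split of Cpr49Ac is description only. With the reverse-label arrays turned Cpr72Ec, Cpr47Ee and Cpr49Ac stood at -0.09, 0.15 and -0.09, so Cpr72Ec changed sign. All 3 lie among other Cpr genes in RefSeq's gene order, with 2, 6 and 5 genes of the chosen prefixes within 5 genes of Cpr72Ec, Cpr47Ee and Cpr49Ac, and transcripts of related family members may bind the same spot there too.

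**Figure D2:**
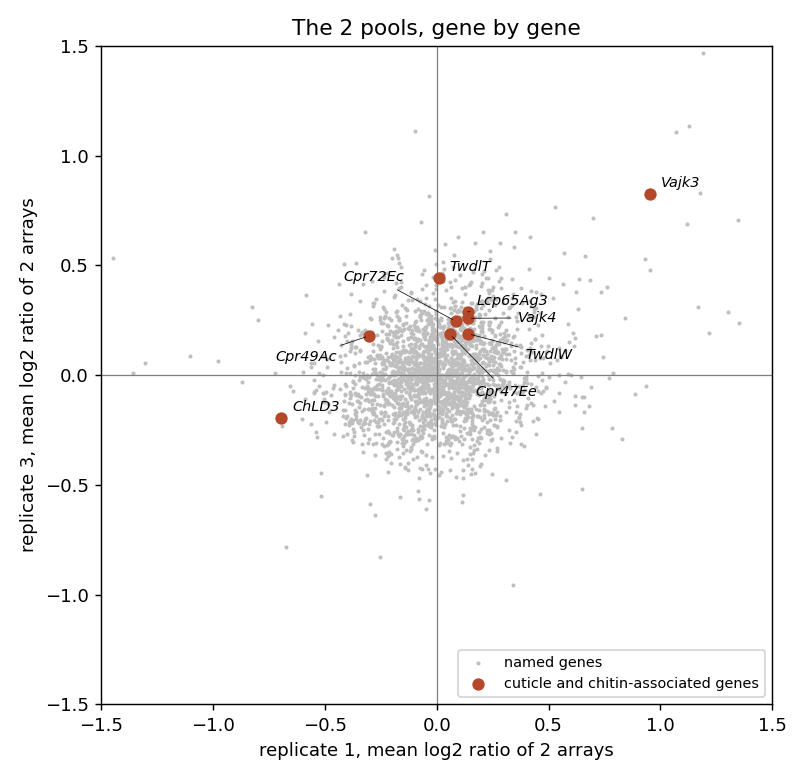
Mean log2 ratio of extract over ethanol in replicate 1 (horizontal) and replicate 3 (vertical), each over 2 arrays, for the 9 genes (red) and the 2377 named genes (grey, 6 of them outside the axes). Vajk3 lies in the upper right at 0.95 and 0.83, ChLD3 in the lower left at -0.69 and -0.19, and the other 7 lie within the main cloud, above 0 in replicate 3.

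As a group the 9 genes leaned above 0, and how far depended on the array. Since 5 of them were chosen with these ratios in view, the shares set beside the counts are description and no test. Of the 4 added by the prefixes, Vajk4 stood at 0.20 ± 0.15, Cpr72Ec at 0.17 ± 0.15, Cpr47Ee at 0.12 ± 0.15 and Cpr49Ac at -0.06 ± 0.17. By mean 7 of 9 lay above 0, where 51.5% of named genes did, and the same 7 lay above 0 in both pools, where 27.6% of named genes did. The group median was 0.17, against 0.01 over the named genes and 0.00 over all features, and it was 0.07 without the Cy3 array of replicate 1. On the arrays of replicate 3 the median was 0.25 with Cy3 and 0.23 with Cy5, and 8 and 7 genes lay above 0, where 51.1% and 50.1% of named genes did. On those of replicate 1 it was 0.11 with Cy3 and -0.14 with Cy5, and 5 and 4 genes lay above 0, where 49.5% and 52.0% of named genes did. With the reverse-label arrays turned 6 of 9 means lay above 0, where 50.8% of named genes did. The lean was therefore plainer in replicate 3, where the pool median was 0.25, against 0.08 in replicate 1. The 7 means other than those of Vajk3 and ChLD3 ran from -0.06 to 0.22, and the SD over all 9 means was 0.35, beside 0.20 over the named genes.

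In the limma fit over all 13607 features, 6 features passed at a Benjamini-Hochberg adjusted p under 0.05 (0.0441%), and none of the 9 genes was among them. Before adjustment 999 features (7.34%) had a p under 0.05, among them Vajk3 and ChLD3, 2 of the 9 genes. Since the genes were chosen with these ratios known, no more is read from either count. Where named genes were fitted alone, 10 passed, Vajk3 among them, and it was the 1 call among the 9 genes under any setting run.

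**Figure D3:**
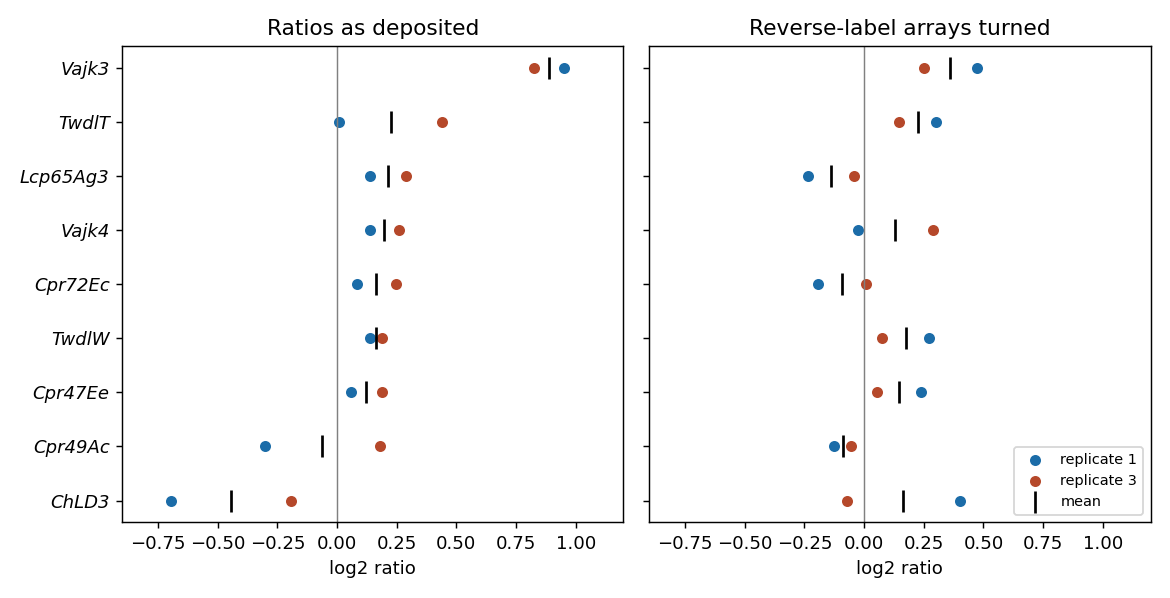
Log2 ratios of the 9 genes by pool, as deposited (left) and with the 2 reverse-label arrays multiplied by -1 (right); blue points are replicate 1, red points replicate 3 and the black bar their mean. Vajk3 stays above 0 in both pools on both sides, at a mean of 0.89 on the left and 0.36 on the right, while ChLD3, Lcp65Ag3 and Cpr72Ec have means of opposite sign.

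Duplicate spots on 1 array did not always match. Over the 9 genes and 4 arrays, 72 spot values were measured, 49 above 0 and 23 below. In 7 of the gene-by-array pairs the 2 spots differed in sign. The same counts were not made over other genes, so these are description only. The median gap between the 2 spots of a gene was 0.06 and 0.16 on the Cy3 and Cy5 arrays of replicate 3, and 0.40 and 0.19 on those of replicate 1. The other 2824 adjacent pairs listed under 1 gene had median gaps of 0.19, 0.28, 0.30 and 0.24 on the same arrays.

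The wider cuticle pathway was read from 6 lists of 131 symbols, spelling variants included, of which 20 were measured. None of the 20 passed over all features (limma), and 1 had an unadjusted p under 0.05. Of the 20 means 13 lay above 0 and 7 below, with a median of 0.09, beside 51.5% above 0 over the named genes. On all 4 arrays 5 of the 20 genes kept 1 sign, where 8.83% of named genes lay above 0 and 7.99% below. After turning the reverse-label arrays 13 of the 20 means lay above 0, with a median of 0.03, where 50.8% of named genes did. But 8 of the 20 genes had the opposite sign, so the directions below hold for the ratios as deposited. The share of named genes that change sign on turning was not counted.

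In chitin synthesis and assembly 0 of 4 genes passed. The highest was verm, the chitin deacetylase vermiform, which limits the length of tracheal tubes. It read 0.36 and 0.26 in replicate 1 and 0.66 and 0.81 in replicate 3, above 0 on all 4 arrays, with a mean of 0.52 ± 0.16 (limma, adjusted p = 0.525). ChLD3, named for the same enzyme family, lay below 0 on the same 4 arrays. Turned, verm stood at -0.02. The other 3 genes make the sugar donor of chitin. The aminotransferase Gfat2 stood at 0.02, the mutase nst at 0.06 and mmy, the UDP-N-acetylglucosamine pyrophosphorylase, at -0.07. Turned, Gfat2, nst and mmy stood at 0.21, 0.10 and 0.31, so mmy changed sign.

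In chitin turnover 0 of 5 genes passed, and 4 lay above 0 by mean. The chitinase-family genes Cht7, Cht12 and Cht10 stood at 0.19, 0.13 and -0.03. The chitinase-like growth factor Idgf3 had pool means of 0.20 and 0.20. The hexosaminidase fdl, known for trimming sugar chains on proteins, stood at 0.18. Of these 5 genes Cht12 and Idgf3 were above 0 on all 4 arrays, Idgf3 with a lowest value of 0.0003. Turned, Cht7, Cht12, Cht10, Idgf3 and fdl stood at 0.04, 0.03, -0.0018, 0.15 and -0.04, so fdl changed sign.

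Among other proteins of the cuticle and the apical matrix 0 of 5 passed. The chitin-binding obstructor genes split by pool in opposite ways: obst-A stood at 0.65 in replicate 1 and -0.10 in replicate 3, and obst-B at -0.23 and 0.45. The zona pellucida domain genes pio, neo and dyl, whose products anchor the matrix to the cell, stood at 0.20, 0.01 and -0.18, and dyl was below 0 on all 4 arrays. Turned, pio, neo and dyl stood at -0.05, 0.29 and 0.13, so pio and dyl changed sign, and obst-A and obst-B stood at 0.20 and 0.02.

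Of the surface lipid genes, snu, an ABC transporter needed for the outer lipid barrier, had a mean of 0.33 ± 0.15 and lay above 0 on all 4 arrays (limma, adjusted p = 0.683), but turned it stood at -0.04. Cyp4g15, a cytochrome P450 of the Cyp4g group, stood at 0.14, and the fatty acid elongase bond at -0.11. The laccase stw, which tans cuticle, was the 1 measured gene of tanning and pigmentation, at -0.03. The hormone-response regulators br and ftz-f1, which time cuticle programmes at moults, stood at -0.08 and -0.10. Turned, Cyp4g15 and bond stood at 0.23 and -0.04, stw at 0.02, br at -0.16 and ftz-f1 at 0.17, so stw and ftz-f1 changed sign. In these 3 lists 0 of 3, 0 of 1 and 0 of 2 genes passed.

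**Figure D4:**
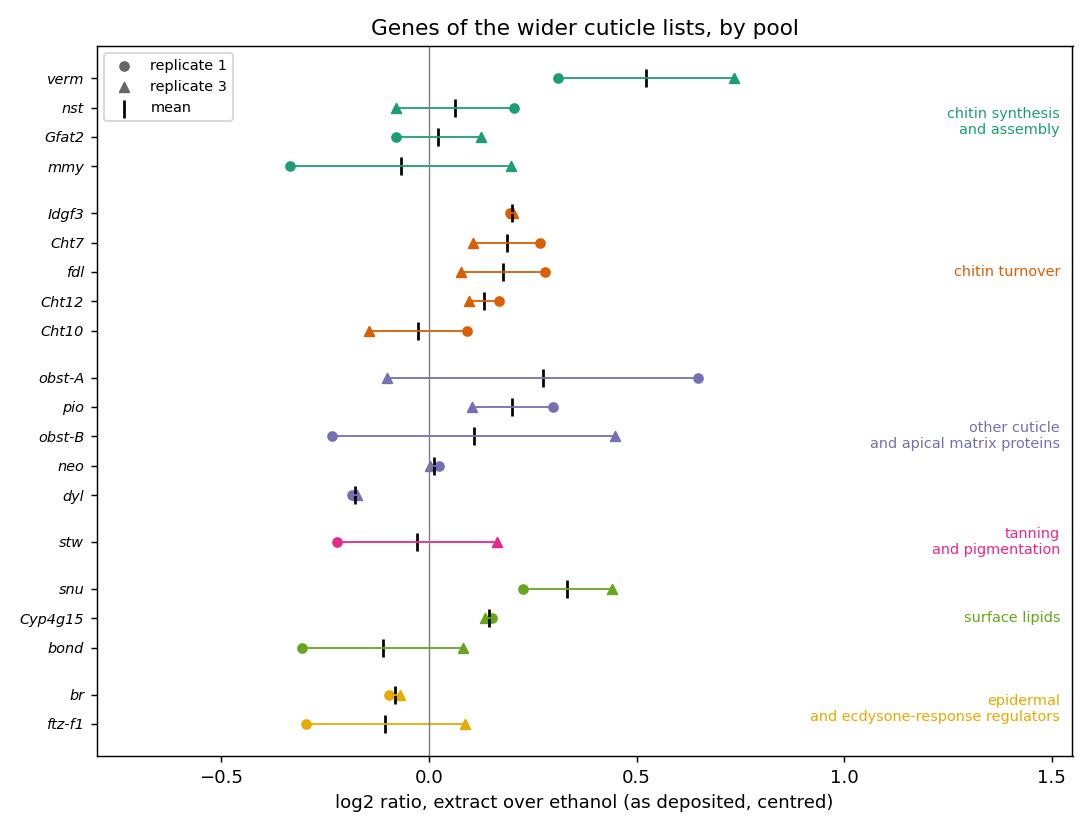
Log2 ratio of extract over ethanol, as deposited and centred, for the 20 measured genes of 6 wider cuticle lists; circles are replicate 1, triangles replicate 3, each over 2 arrays, and the black bar is their mean. As deposited, the highest mean is verm at 0.52 and the lowest dyl at -0.18 (with the reverse-label arrays turned, mmy at 0.31 and br at -0.16), and pools on opposite sides of 0 are common.

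Genes with array patterns most like those of the 5 named ones were taken from the other 2368 named genes by the root mean square difference of the 4 array ratios. For Vajk3 no gene lay within 0.2. Its nearest were CG5966, a predicted lipase, at 0.28, the flight-muscle actin Act88F at 0.35 and the phosphatidate phosphatase Lpin at 0.35. ChLD3 had 3 genes within 0.2, Karybeta3, wls and Naa35, at 0.16, 0.18 and 0.19, each with a ratio under -0.8 on the Cy5 array of replicate 1. TwdlT had 28 within 0.2, led by Gr97a, spri and CG32548 at 0.05, 0.09 and 0.13. TwdlW had 213, led by soti, ND-51 and CG9411 at 0.06, 0.07 and 0.07, and Lcp65Ag3 had 172, led by CG5493, Ccs and mfrn at 0.03, 0.07 and 0.07. The difference is an absolute distance, so genes with ratios near 0 have many neighbours and genes far from 0 have few. These counts therefore depend on distance from 0 and do not measure how shared or rare a pattern is. For TwdlW and Lcp65Ag3, 4 arrays do not single out partners.

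Markers of other tissues were read on the same arrays, and 0 of the 18 measured passed over all features (limma). Beside the counts below, 51.5% of named genes lay above 0 by mean, and 50.8% with the reverse-label arrays turned. Of 7 measured muscle genes 6 lay above 0, with a median of 0.35 and array medians of 0.22 to 0.43, and with the reverse-label arrays turned 3 of 7 did, with a median of -0.01. The fat body list had 2 of 4 genes above 0 and a median of -0.0039, and turned 1 of 4 and -0.07. The ovary and yolk list had 1 of 3 genes above 0 and a median of -0.01, and turned 3 of 3 and 0.09. The neuronal genes nSyb and cac stood at 0.25 and 0.05, and turned at -0.06 and 0.05. The 1 gut gene and 1 haemocyte gene stood at -0.11 and -0.02, and turned at -0.15 and -0.07. Their part in the ratios of the cuticle genes was not tested.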

How the data were processed

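The data were 4 two-channel arrays of 2 pools. The authors deposited 1 log2 ratio per spot for 16896 spots, none of them missing. The log base was assumed to be 2. Scanner, background correction, normalization and numerator: not given in the sources used here. Before centring, medians of the arrays lay within 0.0022 of 0. Gene symbols came from the platform annotation (1 gene for 5666 spots, several for 152, none for 11078), and all 5666 matched RefSeq's table of assembly GCF_000001215.4 by gene number. Spots of a gene were averaged per array, other spots stayed single features (13607 in all), and the 2 arrays of a pool were averaged. The mean of the 2 pools was tested against 0 in limma 3.58.1 (lmFit, eBayes; R 4.3.3), two-sided, with Benjamini-Hochberg adjustment over all features. The fit had 1 residual and 8.19 prior degrees of freedom. Tested on simulated data, it recovered most features changed by a log2 ratio of 2. Recovery at a ratio of 1 was not required and is not given here. Since Vajk3, the farthest from 0 of the cuticle genes, stood at 0.89, recovery at 2 says nothing of genes of their size. With 1 residual degree of freedom the prior was estimated loosely. False calls exceeded the nominal share in simulated tables where the prior degrees of freedom came out too high. In the real data Act88F, at 1.13 ± 0.15, did not pass (limma, adjusted p = 0.0506). Genes with smaller ratios that did not pass are therefore not shown to be unchanged. The number of arrays limits the precision.

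The genes, lists and tests were chosen with earlier results of these data known. All 9 genes were named; from the wider lists every measured gene was named, since no list had more than 6, and for each of the 5 given genes the 3 other named genes nearest in array ratios. Alternatives were the reverse-label arrays turned, each array or pool left out, equal array spread, no centring, the median of spots, 4 arrays with the replicate block, named genes alone and robust empirical Bayes.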

Additional observations from a re-analysis of the deposited data

Results flagged for a closer look

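One array lay far from the other 3 in 3 of 50 genes and list medians compared by a fixed critical value, where chance gives about 1 in 20, or 2.5. Cpr72Ec stood at -0.107 on the Cy3 array of replicate 1, with the others at 0.237 to 0.277. Cht12 stood at 0.0282 on the Cy5 array of replicate 3, with the others at 0.164 to 0.171. On that array the median of the chitin turnover list, which holds Cht12, was 0.0003, with the others at 0.164 to 0.183. ChLD3, whose lowest array was -1.10 and the others -0.29 to -0.12, came just under the critical value, with a gap of 0.824 of its range.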

How the results depend on the processing

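The group median of 0.17 stayed above 0 under all 13 alternatives, from 0.0739 to 0.246, and 6 to 8 of the 9 genes had means above 0. Not all of these could move a mean. With 2 spots per gene and 2 arrays per pool, the median of spots and the replicate block leave the 9 means as they are. Named genes alone and robust empirical Bayes change the errors and leave the means. Without centring the group median was 0.1644, since the array medians were already near 0. Vajk3, TwdlT, Vajk4, TwdlW and Cpr47Ee kept their sign under all 13. Lcp65Ag3, Cpr72Ec and ChLD3 changed sign with the reverse-label arrays turned, and Cpr49Ac without the Cy3 array of replicate 1 (0.0006) or without replicate 1 (0.18). With 1 array left out Vajk3 ran from 0.65 to 1.12, ChLD3 from -0.65 to -0.24, TwdlT from 0.07 to 0.38, TwdlW from 0.03 to 0.30, Lcp65Ag3 from 0.10 to 0.33, Vajk4 from 0.05 to 0.34, Cpr72Ec from 0.07 to 0.26, Cpr47Ee from 0.00 to 0.24 and Cpr49Ac from -0.12 to 0.00. The 6 features past the limma test became 0 with the reverse-label arrays turned (647 at an unadjusted p under 0.05), 17 with arrays scaled to equal spread, 12 with 4 arrays and the replicate block (correlation -0.244 between arrays of a pool), 10 of 2377 with named genes alone, and 0 to 11 with 1 array left out. The 0 fell without the Cy3 array of replicate 3 (835 at an unadjusted p under 0.05) and the 11 without the Cy5 array of replicate 1; the cause was not tested. None of the 20 genes of the wider lists passed under any alternative with a test, with 0 to 2 at an unadjusted p under 0.05. Of these 20, Cyp4g15, Gfat2, br, mmy, neo, nst and stw (7) changed sign without 1 of the arrays. The share of named genes that do so was not counted. With 1 pool left out no test was possible, and values alone were compared. Signal over background was not used here, so ratios of dim spots could not be set apart.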
